A study of Mus musculus with 2 samples.

Results

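Bone morphogenetic protein (BMP) signalling in costal-cartilage-derived stem cells (CDSCs) was described through 10 genes, selected by gene symbol from the 21849 genes counted. They comprise 5 ligands (Bmp2, Bmp4, Bmp5, Bmp6 and Gdf5), 2 receptors (Bmpr1a and Bmpr1b) and 3 antagonists (Grem1, Nog and Chrdl1). The series holds 2 single-cell RNA libraries, 1 from primary CDSCs and 1 from CDSCs cultured to passages P2 to P3. Per the study's methods, the cells came from the rib cartilage of newborn C57BL/6J mice carrying CD45.1 or ZsGreen, were released with collagenase, and were sorted as CD45- CD51+ cells. The cultured cells had been grown in medium with fetal bovine serum. The labels name bone marrow as the tissue of both libraries, and how many mice were pooled was not given in the sources used here. As each group is a single library, no test was run, and the differences below lack any replicate check. All intervals are exact 95% intervals that cover counting error only.

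BMPs are secreted dimers of the TGF-beta superfamily. They bind pairs of type I and type II serine/threonine kinase receptors, which phosphorylate Smad1, Smad5 and Smad9, and these enter the nucleus with Smad4 and switch on targets such as the Id genes. Antagonists such as gremlin, noggin and the chordin family bind the ligands outside the cell and keep them from their receptors. In cartilage, BMP signals through BMPR1A and BMPR1B are needed for chondrocytes to form, and GDF5 is known for marking future joints.

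After barcodes with fewer than 500 genes, fewer than 1000 unique molecular identifiers (UMIs, the count of distinct captured transcripts) or more than 10% mitochondrial UMIs were left out, the primary library held 11746 cells with 137148874 UMIs and the cultured library 5338 cells with 330129909 UMIs. The median was 10026.5 UMIs per primary cell and 56864.5 per cultured cell, and the filter had left out 1.26% of the primary and 50.6% of the cultured barcodes. The libraries shared 32 barcode sequences, 15 of them among kept cells of both. The cartilage markers in the primary library matched the source given in the study's methods rather than the tissue label. Col2a1, the main collagen of cartilage, stood there at 53268 CPM (a gene's UMIs for every 1000000 UMIs of its library). In the cultured library Col2a1 stood at 490 CPM, and all 13 chondrocyte markers were at least 4-fold lower, their summed level being 92199 CPM in primary and 1089 CPM in cultured CDSCs. The smooth muscle and pericyte markers summed to 183 CPM in primary and 2579 CPM in cultured CDSCs, with 4 of 8 at least 4-fold higher, 1 at least 4-fold lower and none at 0. ZsGreen had 60957 primary UMIs and 0 cultured UMIs, and the Y-linked gene Uty had 11 and 20195. The donor animals therefore differed, and donor, library and culture cannot be told apart in any comparison below.

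All 10 genes are protein coding, and their positions follow GENCODE M21 on GRCm38, the build of the files. Grem1 lies on chromosome 2 (113746164 to 113758646, minus strand), as do Bmp2 (133552159 to 133562885, plus strand) and Gdf5 (155941023 to 155945367, minus strand). Bmp4 (46383520 to 46390669, minus strand) and Bmpr1a (34410734 to 34503341, minus strand) lie on chromosome 14. Bmp6 is on chromosome 13 (38345107 to 38500302, plus strand), Bmp5 on chromosome 9 (75775364 to 75900310, plus strand) and Bmpr1b on chromosome 3 (141837136 to 142169425, minus strand). Nog is on chromosome 11 (89300638 to 89302332, minus strand) and Chrdl1 on chromosome X (143285674 to 143394262, minus strand). Of these, Bmp4, Bmp6, Gdf5 and Bmpr1a overlap genes on the opposite strand and Bmp5 overlaps a gene on each strand. Whether the counting separated strands was not given in the sources used here, so the counts of these 5 genes may hold reads of a partner.

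The 250 bases before the start site are shown for the 2 genes with more than 2-fold higher CPM in cultured cells, Grem1 and Bmp4, from RefSeq on GRCm38.p6. RefSeq promoters were matched for 6 of the 10 genes. Capitals mark GGGCGG or its reverse complement CCGCCC, the GC box bound by Sp and KLF factors, and GGCGCC, a GC-rich element known from BMP-responsive promoters. The Grem1 window is chr2:113758649-113758898 and the Bmp4 window chr14:46390670-46390919, both on the minus strand and read 5′ to 3′.
Grem1: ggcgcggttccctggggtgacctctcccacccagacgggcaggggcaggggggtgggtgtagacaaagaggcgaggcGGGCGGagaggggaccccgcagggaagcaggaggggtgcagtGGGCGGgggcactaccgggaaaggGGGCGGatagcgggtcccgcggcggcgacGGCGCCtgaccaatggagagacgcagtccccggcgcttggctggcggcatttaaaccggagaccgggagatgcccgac
Bmp4: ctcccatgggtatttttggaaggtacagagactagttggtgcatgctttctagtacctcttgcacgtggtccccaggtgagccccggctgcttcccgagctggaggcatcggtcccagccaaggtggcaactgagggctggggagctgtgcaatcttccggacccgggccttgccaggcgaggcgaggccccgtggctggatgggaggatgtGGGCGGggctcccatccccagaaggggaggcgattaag
The Grem1 window holds 3 GC boxes and 1 GGCGCC, and 72% of its bases are G or C. In Bmp4 there is 1 GC box and no GGCGCC, with 63.2% G or C. Among all 32851 RefSeq windows of this length, 32.7% hold a GC box and 9.59% a GGCGCC on either strand. Such matches describe the letters of the windows and no binding was measured.

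The question of the comparison was whether CDSCs change in culture. Among the 10 genes, Grem1 was at least 4-fold higher in cultured than in primary CDSCs, and Bmp6, Nog and Bmp2 were at least 4-fold lower. Of the 17307 genes with more than 3 UMIs in at least 1 library, 11.6% passed the 4-fold limit upwards and 11.2% downwards. At a 2-fold limit, 2 of the 10 genes were higher and 6 lower, and the shares over all these genes were 26.5% and 21%. Their log2 ratios of cultured over primary CPM had a median of -1.22, against 0.21 over all 17307 genes. The other 6 genes differed by less than 4-fold.

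Bmp6, a ligand also known for its part in iron regulation, showed the greatest difference of the 10. Its level was 262 CPM (interval 259 to 264) in primary CDSCs and 2.00 CPM (1.85 to 2.15) in cultured CDSCs, from 35866 and 659 UMIs. This is a log2 ratio of -7.03 (-7.15 to -6.92), or a 131-fold lower level. Bmp2, a potent inducer of cartilage and bone, stood at 112 CPM (110 to 114) in primary and 11.1 CPM (10.7 to 11.4) in cultured CDSCs, a log2 ratio of -3.34 (-3.39 to -3.29). Bmp5, known for shaping skeletal elements, was 78.4 CPM in primary and 31.9 CPM in cultured cells, a log2 ratio of -1.30 (-1.34 to -1.26).

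The remaining ligands had higher CPM in cultured cells. Bmp4, a close relative of Bmp2, was 18.5 CPM (17.8 to 19.2) in primary and 60.7 CPM (59.9 to 61.6) in cultured CDSCs, a log2 ratio of 1.71 (1.65 to 1.77). Gdf5 was low in both, at 5.80 CPM (5.41 to 6.22) and 8.29 CPM (7.98 to 8.60). The ligand transcripts therefore differed in make-up as well as in amount. Bmp6 contributed 54.9% of the UMIs of the 5 ligands in primary CDSCs and 1.75% in cultured CDSCs, whereas Bmp4 contributed 3.89% and 53.3%. Together the 5 ligands had 476 CPM in primary and 114 CPM in cultured cells.

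The type I receptors differed in opposite directions. Bmpr1a, which is widely expressed, was 92.0 CPM (90.4 to 93.7) in primary and 148 CPM (146 to 149) in cultured CDSCs, a log2 ratio of 0.68 (0.65 to 0.71). Bmpr1b, the receptor that GDF5 prefers, was 126 CPM (124 to 128) in primary and 57.0 CPM (56.2 to 57.8) in cultured CDSCs, a log2 ratio of -1.14 (-1.17 to -1.11). Their sum was 218 CPM in primary and 205 CPM in cultured cells, with Bmpr1b the larger of the pair in primary CDSCs (57.8% of their UMIs) and Bmpr1a in cultured CDSCs (72.2%).

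Grem1, which encodes gremlin, had the highest level of the 10 genes in cultured CDSCs. It was 30.1 CPM (29.2 to 31.1) in primary and 1091 CPM (1088 to 1095) in cultured cells, from 4135 and 360296 UMIs, a log2 ratio of 5.18 (5.13 to 5.22) or a 36.2-fold higher level. Noggin, encoded by Nog, showed the opposite direction, with 17.9 CPM (17.2 to 18.7) in primary and 1.30 CPM (1.18 to 1.43) in cultured CDSCs, a log2 ratio of -3.79 (-3.94 to -3.64). Chrdl1, a chordin-like antagonist, was 5.17 CPM in primary and 1.71 CPM in cultured cells. Grem1 thus gave 56.6% of the UMIs of the 3 antagonists in primary and 99.7% in cultured CDSCs. For each UMI of the 5 ligands there were 0.112 UMIs of these 3 antagonists in primary and 9.60 in cultured CDSCs. The ratio leaves out other antagonists and modulators. Among them, Crim1 was 276 CPM in primary and 316 CPM in cultured cells, and Fstl1 221 and 646 CPM. Twsg1 (144 and 56.1 CPM) and Nbl1 (43.6 and 101 CPM) were also left out. These are transcript counts, and no protein was measured.

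**Figure D1:**
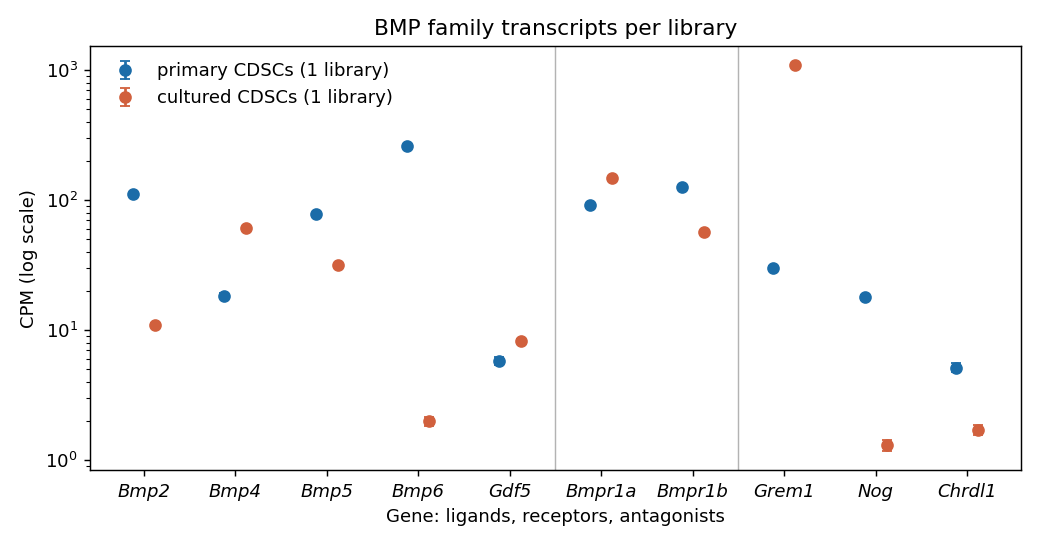
CPM (log scale) of each gene in the primary and cultured libraries, ligands at the left, receptors in the middle and antagonists at the right. Points are single libraries and bars are exact 95% Poisson intervals, mostly smaller than the points. Grem1 lies 36.2-fold higher and Bmp6 131-fold lower in the cultured library.

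Cultured cells were deeper, so shares of cells with a UMI were compared after thinning every cell with at least 5000 UMIs to exactly 5000, which left 10959 primary and 4543 cultured cells. At this depth Bmp6 was found in 39.7% of primary cells (38.8% to 40.6%) and 1.21% of cultured cells (0.913% to 1.57%), with up to 38 UMIs in a primary cell and 2 in a cultured one. Bmp2 was found in 33.1% of primary and 4.71% of cultured cells. Bmp5 was found in 28.7% and 15.3%, and Bmp4 in 9.14% and 19.3%. The shares of Gdf5, 2.41% (2.13% to 2.71%) and 2.88% (2.42% to 3.41%), had overlapping intervals.

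Receptor transcripts were found in many cells of both libraries, Bmpr1a in 32.4% of primary and 48.5% of cultured cells, and Bmpr1b in 36.8% and 20.1%. Grem1 was found in 8.92% of primary cells (8.40% to 9.47%) and 82.6% of cultured cells (81.5% to 83.7%), and the cultured cells held a median of 3 and a maximum of 295 Grem1 UMIs. Nog was found in 6.51% and 0.770%, and Chrdl1 in 2.28% and 0.726%. Without thinning, the deeper cultured cells gave higher shares, such as 97.1% for Grem1 and 59.4% for Bmp5, against 15.6% and 45.5% of primary cells.

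Small groups of other cell types were used as a gauge of free RNA. Whether these cells make the transcripts themselves was not tested. Among 12 haematopoietic-like cultured cells at 5000 UMIs, 25.0% (5.49% to 57.2%) held a Grem1 UMI, and the median depth before thinning was 30316 UMIs for these and 66516 UMIs for the other cells. Summed over all 16 haematopoietic-like cells, Grem1 was 578 CPM (513 to 651), against 1092 CPM in the other cultured cells. Of the 279 Grem1 UMIs in these haematopoietic-like cells, 202 came from a single cell, and the median was 2.5 UMIs per cell. At 5000 UMIs, 16.7% (2.09% to 48.4%) of the haematopoietic-like cells held Bmp2 and 25.0% (5.49% to 57.2%) held Bmp4. The other cultured cells held them in 4.68% and 19.3%. With intervals this wide, the shares of these ligands cannot be separated between the haematopoietic-like and the other cultured cells. Of the 20 Bmp4 UMIs summed over all 16 haematopoietic-like cells, 14 came from a single cell. In the primary library, 17 endothelial-like cells (median depth 13585 UMIs, against 10428.5 UMIs in the others) held Bmp6 in 64.7% (38.3% to 85.8%). Summed over all 25 endothelial-like cells, Bmp6 was 224 CPM (172 to 286), against 262 CPM in the other primary cells. Across the primary clusters described below, Bmp6 ranged from 41.3 to 463 CPM. Whether the endothelial-like cells made this Bmp6 themselves was not tested, nor was the part of free RNA in the primary share. At 5000 UMIs the endothelial-like cells held Grem1 and Nog in 5.88% each (0.149% to 28.7%), which overlaps the shares of the other primary cells.

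**Figure D2:**
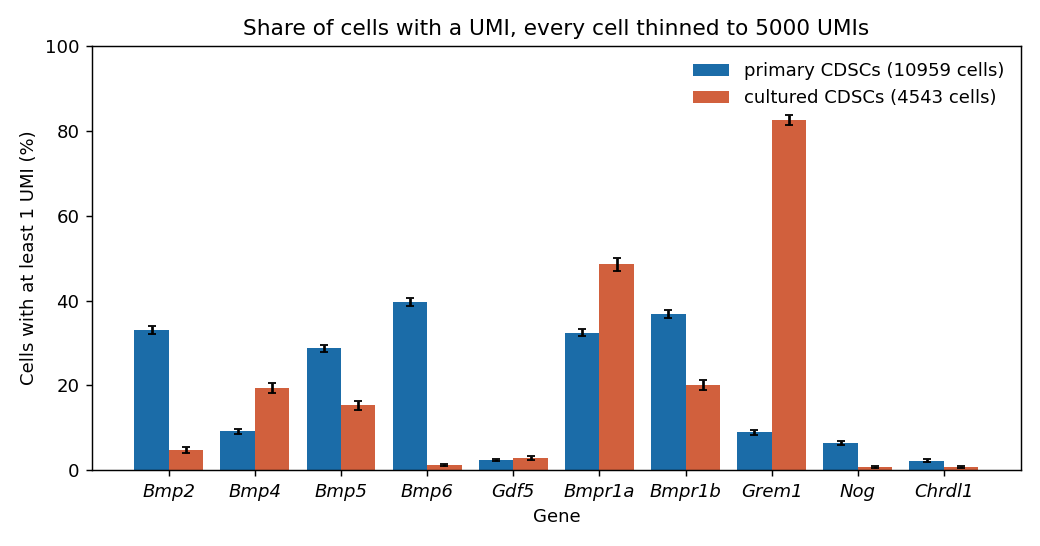
Percentage of cells with at least 1 UMI of each gene after every cell was thinned to 5000 UMIs, in 10959 primary and 4543 cultured cells. Bars are shares and whiskers are exact 95% binomial intervals. Grem1 was found in 82.6% of cultured cells and Bmp6 in 39.7% of primary cells.

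Whether ligands and antagonists were found in the same cells was described at the same depth. In primary CDSCs, 71.4% of cells held a UMI of any of the 5 ligands, 16.0% of any of the 3 antagonists and 10.5% (9.96% to 11.1%) of both, where the product of the 2 shares was 11.5%. In cultured CDSCs, 38.0% held a ligand, 82.9% an antagonist and 30.9% (29.6% to 32.3%) both, where the product was 31.5%. Cells with a UMI of any of the 5 ligands and of none of the 3 antagonists were 60.9% of primary CDSCs. Cells with a UMI of any of the 3 antagonists and of none of the 5 ligands were 52.0% of cultured CDSCs. Other antagonists and modulators, such as Crim1 and Fstl1, were not counted, and both shares hold for cells thinned to 5000 UMIs only. Within the primary library, the antagonists Grem1 and Nog shared 128 cells, 2.01 times the product of their shares. Nog was below the product with Bmp4 (28 cells, 0.430 times the product) and with Bmp2 (132 cells, 0.560 times). Grem1 was at 0.832 times the product with Bmp2, 0.637 times with Bmp4 and 0.861 times with Bmp5. Bmp6, the ligand with the most primary UMIs, was at 1.10 times with Grem1 (428 cells) and 0.961 times with Nog (272 cells). Bmp2 and Bmp4 shared 447 cells, 1.35 times the product.

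Clusters were then formed within each library without the 10 genes and the wider pathway genes, and are named by number and leading genes. Of the 11 primary clusters, 9 with 11270 cells were chondrocyte-like. Between the highest and the lowest cluster, 7 of the 10 genes differed at least 4-fold, as did 25.7% of the 16461 genes with more than 3 primary UMIs. With at least 10 CPM in the library, it was 6 of 8 of them and 15% of 7672 genes. Bmp2 ranged from 336 CPM in cluster 8 (757 cells, led by Specc1 and Clu) to 27.3 CPM in cluster 5 (1131 cells, led by Aoc2 and Acta2). Bmp5 had its extremes in the same clusters, at 171 CPM and 36.9 CPM. Gdf5 was 34.9 CPM in cluster 8 and at most 9.79 CPM elsewhere. Cluster 8 thus held the highest levels of 3 ligands. It also had the highest Prg4, which encodes the joint lubricant lubricin and was chosen after its values were seen, at 431 CPM. Prg4 was among the leading genes of cluster 6. The markers classed clusters 6 and 8 as chondrocyte-like, and whether cluster 8 is joint-like was not tested.

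Bmp4 was highest in cluster 1 (32.6 CPM, 2401 cells, led by Ppargc1a and Hspa1a) and lowest in cluster 5 (2.38 CPM). Bmp6 followed another order. It was 463 CPM in cluster 3 (1630 cells, with Slc22a4 and Srxn1 among its leading genes), 373 CPM in cluster 6 (led by Gpnmb and Pde10a) and 41.3 CPM in cluster 11 (127 cells). The stress gene Hspa1a, chosen after its values were seen, moved with Bmp2, from 999 CPM in cluster 8 to 26.4 CPM in cluster 5, and its part in the order of the clusters was not tested.

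The antagonists Grem1 and Nog were highest in cluster 5, at 102 CPM and 57.2 CPM, where Bmp2, Bmp4 and Bmp5 were lowest. This cluster held 12.5% of the UMIs of the library, 42.5% of those of Grem1 and 39.9% of those of Nog. The lowest levels were 5.50 CPM for Grem1 in cluster 7 (led by Slc35f1 and Runx3) and 4.01 CPM for Nog in cluster 8. The place of the Grem1 peak depended on the clustering. With 30 principal components it was a cluster led by Cma1 and Mcpt4 (79.2 CPM, 158 cells). That cluster was classed as haematopoietic-like by its markers and had a median of 3.06% mitochondrial UMIs. Without the highest doublet scores the Grem1 peak was in a cluster led by Slpi and Pknox2 (88.9 CPM). Nog stayed highest in the cluster led by Aoc2 under both, at 44.6 and 51.7 CPM. Chrdl1 was at most 10.4 CPM in any primary cluster. Bmpr1a varied least of the 10, from 63.6 to 134 CPM. Bmpr1b ranged from 85.7 to 342 CPM, the last in cluster 11, whose median mitochondrial share of 3.39% was the highest of the primary clusters.

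**Figure D3:**
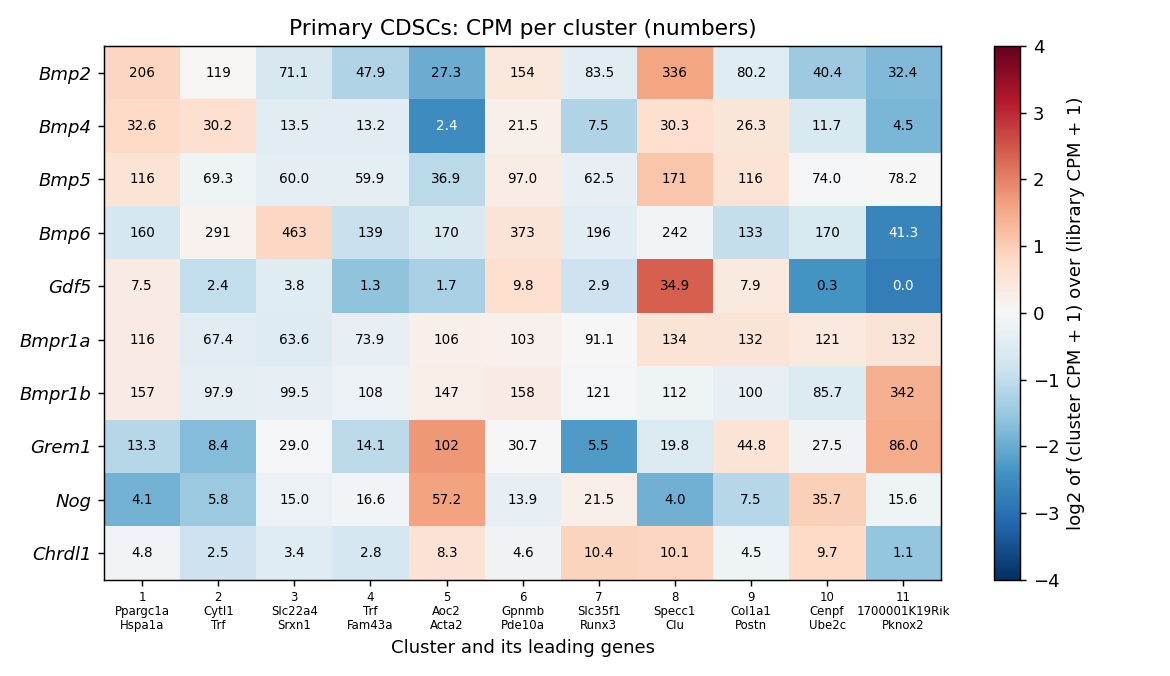
CPM of the 10 genes (rows, numbers) in the 11 primary clusters (columns, with their number and 2 of their leading genes). Colour gives log2 of (cluster CPM + 1) over (library CPM + 1). Grem1 and Nog were highest in cluster 5, where Bmp2, Bmp4 and Bmp5 were lowest.

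Across 29 finer primary clusters of at least 50 cells, the Pearson correlation of log2(CPM + 1) was 0.86 for Bmp2 with Bmp5, 0.82 for Bmp2 with Bmp4 and 0.81 for Bmp2 with Gdf5. It was -0.92 for Bmp4 with Nog and -0.87 for Bmp2 with Nog. For Bmp6 it was -0.16 with Nog and -0.04 with Grem1. For Grem1 it was -0.43 with Bmp2, -0.49 with Bmp4 and -0.16 with Bmp5. These clusters come from 1 library and differ in depth, with which Nog correlated at 0.69 and Bmp4 at -0.58, so the values are a description. The genes whose pattern was most like that of Bmp2 were Chp1 (0.96), Klf2 (0.96) and Pam (0.95), those most like Bmp4 were Arl4a (0.94), Lmbr1l (0.92) and Cpxm2 (0.91), and those most like Bmp5 were Cilp2, Wbp1l and Dab2 (0.95 each). For Nog they were Tkt (0.95), Mif (0.95) and Pgk1 (0.94), of which Pgk1 and Tkt encode enzymes of sugar metabolism. Lower correlations were found for Bmp6, led by Sgms2 (0.85), and for Grem1, led by Tmtc1 (0.87). Across 27 finer cultured clusters the pairs differed from this. There the correlation of Bmp2 was 0.58 with Bmp5, -0.25 with Bmp4, -0.03 with Gdf5 and -0.23 with Nog. That of Bmp4 with Nog was 0.19, with Nog at 1.30 CPM in the cultured library.

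In the cultured library, 8 of 11 clusters were compared, the others being shallow or of under 50 cells. Between them, 6 of the 10 genes differed at least 4-fold, as did 35.8% of the 16723 genes with more than 3 cultured UMIs. With at least 10 CPM it was 3 of 6 and 35.3% of 8481 genes. Bmp5, Bmp6 and Bmpr1b are among the 6 genes and had their highest level in cluster 9, which is described below. Grem1 was highest in cluster 1 (1938 CPM, 1058 cells, led by Mmp13 and Comp) and lowest in cluster 8 (497 CPM, 181 cells, led by Ptn and Thy1). All 8 values lay above that of the highest primary cluster, 102 CPM. Those of clusters 5 and 8 were within or below the interval of 513 to 651 CPM in the haematopoietic-like cultured cells. That interval rests mostly on a single cell, as given above, and the part of free RNA in the values of clusters 5 and 8 was not tested. Bmp4 was 120 CPM in cluster 7 (304 cells, led by Nr5a2 and Barx1), 113 CPM in cluster 6 (557 cells, led by Dmd and Sorbs2) and 19.99 CPM in cluster 4 (739 cells, led by Angptl7 and Hmcn1). Gdf5 was highest in cluster 4, at 16.5 CPM, where Bmp4 was lowest. Over 27 finer cultured clusters, the genes most like Grem1 were Tnfaip2 (0.87), Cp (0.86) and Chp1 (0.83), and those most like Bmp4 were Gadd45g (0.83), Slc1a6 (0.81) and Prss23 (0.79). Without the 4 shallow ones, over 23 clusters, Tnfaip2 (0.88), Wfs1 (0.84) and Cp (0.83) were most like Grem1, so that Chp1 was no longer among them, and Prss23 (0.84), Gadd45g (0.83) and Slc1a6 (0.82) most like Bmp4.

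Bmp6 stayed between 1.01 and 4.34 CPM in the 8 cultured clusters, below the lowest primary cluster. Nog was at most 3.42 CPM. Bmp5, Bmpr1a and Bmpr1b were highest in cluster 9 (148, 314 and 199 CPM), which held 58 cells, was led by Lars2 and had a median of 7.16% mitochondrial UMIs, and whether RNA quality has a part in these values was not tested. Without cluster 9, the highest levels were 55.0 CPM for Bmp5 and 175 CPM for Bmpr1a in cluster 1, and 101 CPM for Bmpr1b in cluster 8. That of Bmp5 was then less than 4-fold above its lowest level, 17.4 CPM in cluster 2.

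**Figure D4:**
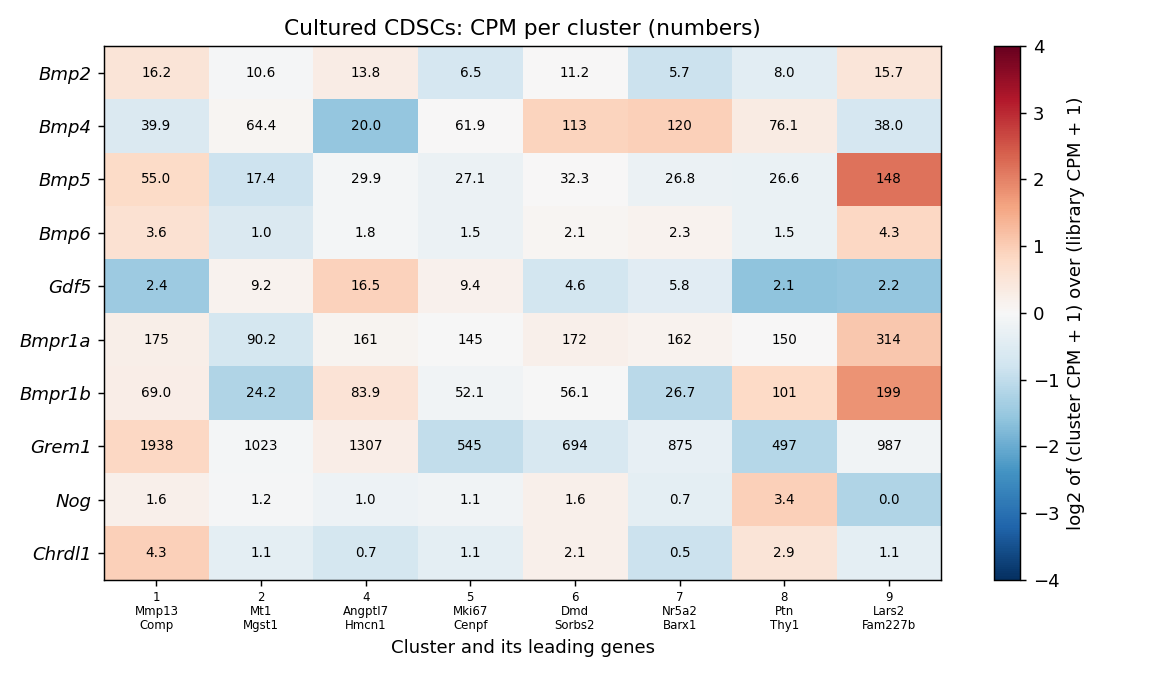
CPM of the 10 genes (rows, numbers) in the 8 compared cultured clusters (columns, named by number and 2 leading genes). Colour gives log2 of (cluster CPM + 1) over (library CPM + 1). Grem1 lay between 497 and 1938 CPM in all 8, and Bmp6 between 1.01 and 4.34 CPM.

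The wider pathway was described with 6 lists of 68 further genes, of which 64 had more than 3 UMIs in a library. Of these 64, 5 had a level at least 4-fold higher in cultured CDSCs, 10 one at least 4-fold lower, and the median log2 ratio was -0.22. The shares over all 17307 genes were 11.6% and 11.2%, as above. With a minimum of 1 CPM in a library, 3 and 8 of 53 did so, where 12.6% and 7.48% of all such genes passed, and with a minimum of 10 CPM, 2 and 5 of 39, where 10.6% and 5.73% passed. Among 15 measured antagonists and extracellular modulators, 3 were higher and 3 lower. Fst, which encodes the activin and BMP binding protein follistatin, was 0.904 CPM in primary and 165 CPM in cultured CDSCs, a log2 ratio of 7.51 (7.26 to 7.78). Its relative Fstl3 was 1.25 and 12.6 CPM. The lower genes were Vwc2 (14.2 and 1.79 CPM) and, chosen after their values were seen, Chrdl2 (7.74 and 0.0394 CPM) and Sostdc1 (1095 and 2 UMIs).

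Of 10 other ligands measured, Bmp7 was 13.8 CPM in primary and 0.754 CPM in cultured cells, and Bmp3 and Gdf3 were also at least 4-fold lower. Gdf3 rests on 10 primary UMIs and 1 cultured UMI, and its interval starts at 3.42-fold lower. Gdf6 and Gdf7 were at least 4-fold higher but stayed under 1 CPM. Bmp3, Gdf3, Gdf6 and Gdf7 were chosen after their values were seen. None of 8 other receptors and co-receptors differed 4-fold, and the type II receptor Bmpr2 was 106 CPM in primary and 107 CPM in cultured CDSCs. Neither did any of 7 genes for ligand and antagonist processing, such as the protease gene Furin (51.4 and 19.98 CPM). Of all 17307 genes, 11.6% were at least 4-fold higher and 11.2% lower, so lists this short cannot show that their genes are more stable. At a 2-fold limit, 1 of these 7 genes was higher and 3 lower, where 26.5% and 21% of all genes were.

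In the Smad list, 2 of 12 genes were at least 4-fold lower and none higher, where 11.2% and 11.6% of all genes were. Bambi, a decoy receptor that is itself a BMP target, was 110 CPM in primary and 5.76 CPM in cultured cells, a log2 ratio of -4.26 (-4.33 to -4.19). Skil, a Smad co-repressor, was 239 and 36.4 CPM. Smad1, Smad5 and Smad4 had log2 ratios of 0.21, 0.07 and 0.21. Among 15 target genes, 3 were at least 4-fold lower (Bambi, Id4 and Dlx3) and none higher, and the median log2 ratio was -0.91. The shares of all genes were again 11.2% and 11.6%. Dlx3, chosen after its values were seen, had 29 primary and 10 cultured UMIs, and its interval starts at 3.31-fold lower. Id1, the classical early target, was 1064 CPM in primary and 353 CPM in cultured CDSCs, Id2 was 281 and 93.7 CPM and Id3 was 1129 and 615 CPM. Runx2, a regulator of bone formation, was 110 and 112 CPM. Within the primary library, Id1 was 921 CPM in cluster 5, where Grem1 and Nog were highest, and ranged from 154 CPM in cluster 11 to 1330 CPM in cluster 1. Id3 was highest in cluster 5 itself, at 1469 CPM, and Id2 in cluster 10, at 405 CPM.

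**Figure D5:**
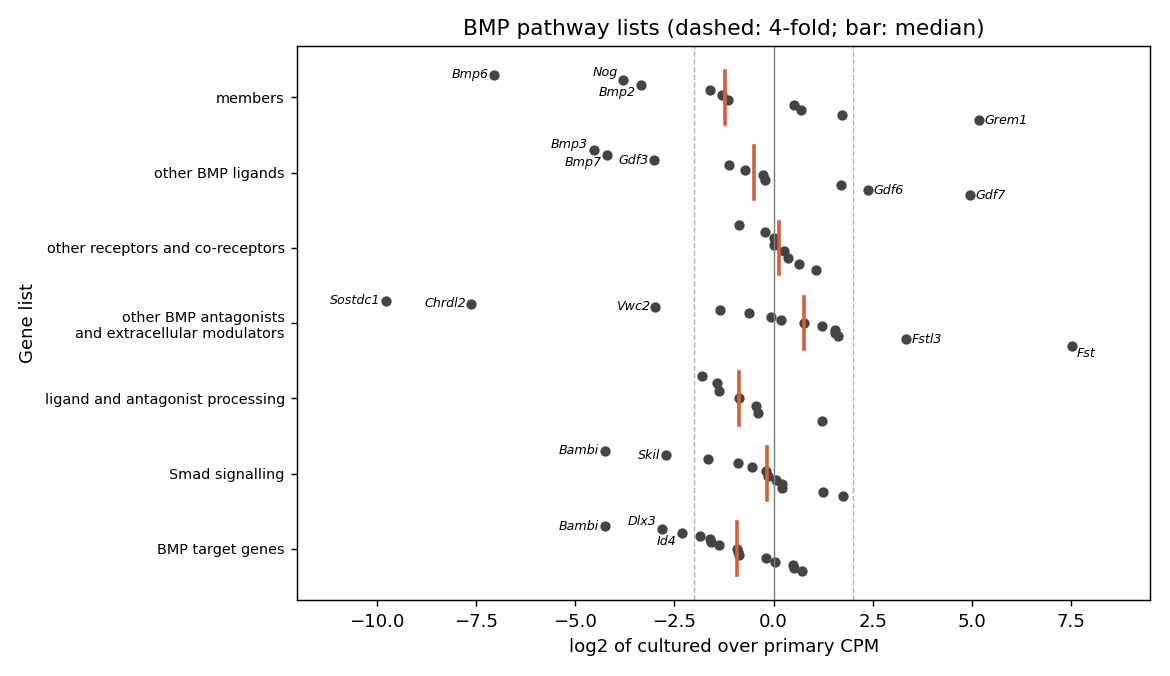
Log2 ratio of cultured over primary CPM for the 10 genes (top row, named members) and 6 lists of pathway genes (rows). Each point is a gene, bars are medians, dashed lines mark 4-fold and the plotted genes beyond them are named, with 1 list gene counted in its median and not plotted. Grem1 and Fst lie at the far right, and Sostdc1, Chrdl2 and Bmp6 at the far left.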

How the data were processed

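Per the labels and the study's methods, libraries were made with a 10x Genomics 3′ kit. The authors ran Cell Ranger 7.0.0 on mm10/GRCm38 and deposited raw UMI counts per gene and barcode, as whole numbers. The annotation release and whether intronic reads were counted were not given in the sources used here. The genes and lists were chosen with earlier results of these data known. Counts were summed over kept cells and scaled to CPM. Intervals were exact (Poisson, Clopper-Pearson, or conditional for ratios). Counts under 3 were raised to 3, which is 0.0219 CPM in primary and 0.00909 CPM in cultured CDSCs, and pairs of counts of at most 3 got no ratio. Clusters used the Leiden method (leidenalg 0.10.2, scanpy 1.11.5) at resolution 0.5, with 20 neighbours, 10 principal components and 2000 variable genes, and finer clusters resolution 2.0. Scrublet called 0 primary and 1 cultured doublet and had not worked, so doublets were kept, and an alternative left out the highest 1118 and 461 scores. Named genes were the 10 genes, list genes with at least 10 CPM, the 3 genes most alike in pattern and cluster markers. Ratios, intervals and thinning were tested on simulated data. edgeR 4.0.16 gave TMM factors only. Some genes that are part of the counts are not reported here by name.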

Additional observations from a re-analysis of the deposited data

How the results depend on the processing

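The signs of the log2 ratios of the 10 genes were those reported in all 70 values under alternatives (every barcode, stricter cell filter, doublet scores, TMM, median of ratios, equal cell weights and primary chondrocyte-like clusters alone), and the counts of 1 gene at least 4-fold higher and 3 lower held in each. Grem1 ranged from 4.81 to 5.64 and Bmp6 from -7.40 to -6.87 on the log2 scale. The ratio of Gdf5 went down to 0.03. TMM moved the median of all genes by -0.20 and median of ratios by -0.37. With a call at 2-fold, 2 of the 10 genes were higher and 6 lower, and 14 and 20 of the list genes. Where 1 CPM in a library was required, 3 list genes were higher, and where 10 CPM was, 2 were higher and 5 lower, since fewer genes were counted. The share of cells with a UMI was higher in cultured CDSCs for 4 genes at 5000 UMIs and for 7 without thinning, where depth differs. The share of primary cells with both a ligand and an antagonist was 0.919 times the product at 5000 UMIs and 0.860 times at 2000 UMIs, and the cause was not tested. No paired analysis was possible because each group had 1 library, and for the same reason no replicate could be left out. The spread between animals, cultures and runs is unknown.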
